A study of Homo sapiens with 96 samples.

Results

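The untreated gene expression of MOLM13, a human acute myeloid leukaemia (AML) cell line, was set against that of 5 other AML lines, HL60, Kasumi1, MV411, OCIAML3 and THP1. The members were the 4 MOLM13 libraries from cells given the vehicle dimethyl sulfoxide (DMSO), out of 24 DMSO libraries and 96 libraries in all. They were compared with the 20 DMSO libraries of the other lines, and the mean of each line entered the comparison with equal weight. The series exposed the 6 lines for 2 or 4 days to 0.1% DMSO, to 1 µM GSK2879552, to 100 nM all-trans retinoic acid (ATRA) or to both drugs, and sequenced total RNA from 2 replicates of each combination. GSK2879552 inhibits the histone demethylase LSD1, which KDM1A encodes. Every DMSO group therefore held 2 libraries at day 2 and 2 at day 4, and none of these cells had received either drug. Only genes on the autosomes were analysed. Each line is a single established culture, so a difference between MOLM13 and the rest describes that line and not a class of leukaemia.

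MOLM13 carries a KMT2A-MLLT3 fusion and an internal tandem duplication in FLT3. KMT2A fusions recruit elongation and DOT1L complexes to chromatin and keep the HOXA cluster and MEIS1 transcribed, and a duplicated FLT3 signals without ligand through STAT5 and RAS-MAPK. MV411 has a KMT2A-AFF1 fusion together with a FLT3 duplication, THP1 has a KMT2A-MLLT3 fusion, OCIAML3 has an NPM1 mutation, Kasumi1 has RUNX1-RUNX1T1, and HL60 has amplified MYC.

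The MOLM13 libraries held 15135455 to 22688809 counts and the other 20 held 17905751 to 40954794, so the MOLM13 values had somewhat less depth behind them. Mitochondrially encoded genes took 0.919 to 1.172% of a MOLM13 library and 0.387 to 6.157% of the others. All 8 genes that define the labelled lineage, CD33, SPI1, MPO, LYZ, CD68, ITGB2, PTPRC and CSF3R, had counts in MOLM13, and they summed to 1408 to 1919 CPM (counts scaled to a common library size) per library there and to 838 to 13609 CPM in the others. Replicate 1 of MOLM13 at day 2 stood apart from the other 3 MOLM13 libraries in histone genes. It had 2.078% of its counts in them against 1.155 to 1.282%. In the share of counts held by the most abundant genes, day 2 replicate 2 was the distant library. That share was 5.544% against 7.027 to 8.267% in the other 3, so the measures differ on which day 2 library was apart. Values of 4 MOLM13 libraries are given below in the order day 2 replicates 1 and 2, day 4 replicates 1 and 2, and all levels are CPM of the TMM-adjusted autosomal library size.

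Of 20733 genes tested, 11343 (54.7%) differed between MOLM13 and the mean of the 5 other lines at an adjusted p under 0.05 with edgeR's quasi-likelihood test, of which 6806 (32.8%) were higher and 4537 (21.9%) were lower. This contrast averages the lines on the log2 scale, so a line in which a gene is silent weighs as much as a line in which it is abundant. In 3420 genes at least 1 of the 12 line and day groups had 0 counts, and there the count model could call MOLM13 higher (1349 genes) far more readily than lower (139 genes). Limma on log2 CPM, added after the data were seen, called 1157 of those 3420 genes higher and 1611 lower, and over all genes 6578 higher and 6415 lower. Most weight was therefore given to genes that differed from each of the 5 lines singly: 1108 genes (5.34%) were higher in MOLM13 than in each other line and 819 (3.95%) were lower than in each, and limma gave 1062 and 883, with 1030 and 812 genes called by both tools. In 596 genes (2.87%) all 4 MOLM13 libraries lay above all 20 others, and in 290 (1.40%) all lay below. With the 6 lines themselves as the replicates, edgeR called 0 of 25295 genes (693 were under 0.05 before adjustment), against 186 genes by DESeq2. MV411 was the line closest to MOLM13. The median gene differed by 0.295 on the scale of log2(CPM + 1) between these lines, against 0.369 for OCIAML3 and 0.430 to 0.456 for Kasumi1, HL60 and THP1.

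The 12 genes furthest above every other line included receptors, adhesion molecules, enzymes and secreted factors. ERBB4, a receptor tyrosine kinase for neuregulins, had 35.8, 39.1, 17 and 18.5 CPM in MOLM13, while the other 20 libraries ran from 0 through a median of 0 to 0.105 CPM. The groups did not overlap, and MOLM13 stood 407-fold above THP1, the nearest line (log2 difference from the mean of the lines 10.74, SE 0.17, adjusted p = 5.42e-16). ERBB4 was also lower at day 4 than at day 2 within MOLM13 (log2 difference -1.08, adjusted p = 0.00661). CD3D, a subunit of the T cell receptor complex, had 12.9, 16.1, 11.4 and 17.4 CPM in MOLM13 and 0, 0 and 0.202 CPM as lowest, median and highest of the others. MOLM13 was 116-fold above THP1 without overlap (log2 difference 9.16, SE 0.28, adjusted p = 5.99e-14). The 20 lymphoid markers, which include CD3D, summed to 225 to 249 CPM in MOLM13 and to 105 to 209 CPM in the others. CD2, DNTT, EBF1, GZMA, GZMB and MS4A1 were at 0 in MOLM13. Of the 13 tested, 5 were higher and 2 lower than the mean of the lines by edgeR, and 5 and 6 by limma. Their median log2 difference was -0.45, and 1 was higher and 1 lower than in each line. The part of other cells in the CD3D level was not tested, and in bulk libraries fewer cells of a type and less RNA per cell cannot be told apart. CADM1, an adhesion molecule of the immunoglobulin family, had 170, 164, 129 and 128 CPM in MOLM13 against 0, 1.30 and 15.9 CPM (10.0-fold above THP1, adjusted p = 4.42e-18).

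ENPP2, which encodes autotaxin, the enzyme that makes lysophosphatidic acid, had 475, 391, 235 and 243 CPM in MOLM13, and the others ran from 0 through 0.207 to 67.3 CPM. Only MV411 approached it, with a mean of 44.4 ± 16.7 CPM (SD, n = 4), and MOLM13 was 7.57-fold above MV411 (log2 difference from all lines 9.63, SE 0.15, adjusted p = 8.43e-20). CD86, the T cell costimulatory ligand that also marks monocyte differentiation, had 11.6, 16.5, 26.8 and 34.5 CPM in MOLM13 against 0.123, 1.74 and 5.26 CPM (7.87-fold above MV411, adjusted p = 9.89e-13). The remaining genes of this group were TRIM72, a membrane repair protein of muscle (60.6 ± 8.78 CPM), PROK2, a secreted prokineticin (37.5 ± 8.58), AKR7A3, an aldo-keto reductase (20.3 ± 6.14), EFNA5, an ephrin ligand (30.3 ± 5.92), COLQ, the collagen tail of acetylcholinesterase (20.9 ± 5.04), SYNPO2, an actin-binding protein (128 ± 37.0), and SHISA2 (19.7 ± 5.27). Each of these 7 was 7.10-fold to 46.9-fold above the nearest line, and in all of them the 4 MOLM13 libraries lay above the other 20.

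**Figure D1:**
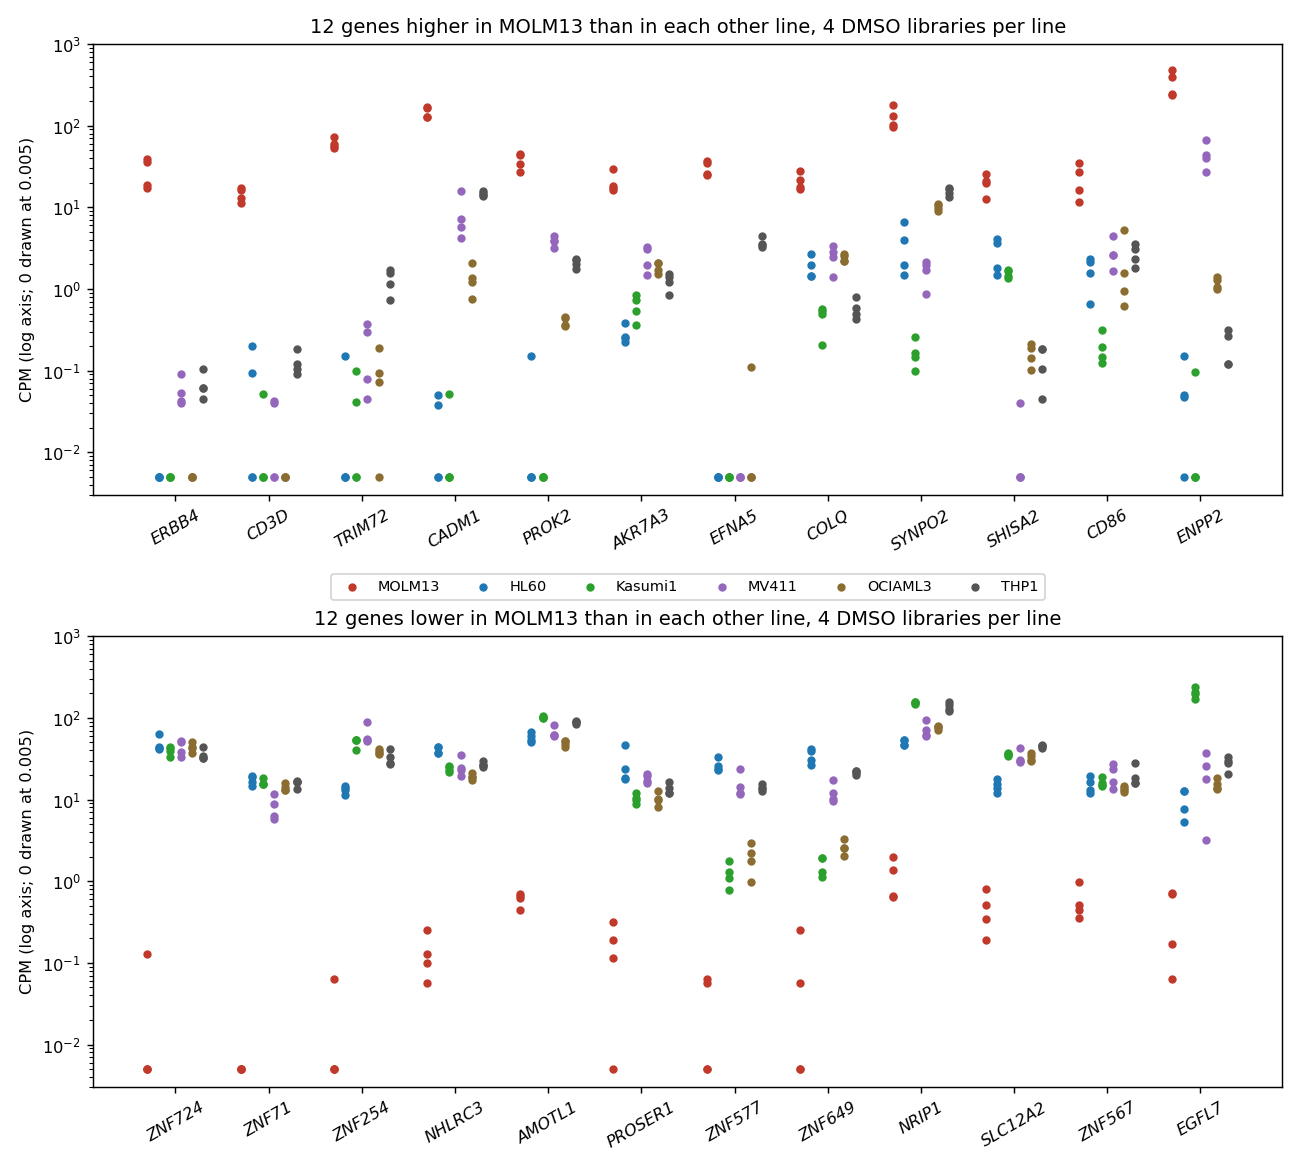
CPM on a log axis in each of the 24 DMSO libraries for the 12 genes furthest above (upper panel) and the 12 genes furthest below (lower panel) every other line. Each point is 1 library, MOLM13 points stand leftmost for each gene, and libraries with 0 counts are drawn at 0.005. MOLM13 is apart from all other points in every gene shown.

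Among the genes furthest below every other line, 6 of 12 encode zinc finger transcription factors of chromosome 19, and another pair shares a promoter region on chromosome 13. ZNF724 had 0, 0.128, 0 and 0 CPM in MOLM13, which is 2 counts in all, and 32.5, 42.5 and 64.3 CPM as lowest, median and highest of the others (adjusted p = 1.16e-14). THP1, the nearest line, was 1117-fold above MOLM13, with a counting interval of 337 to 10067-fold. ZNF71 had 0 counts in all 4 MOLM13 libraries against 5.70, 15.5 and 19.6 CPM in the others, at least 187-fold lower than in MV411 with a floor of 3 counts over the 4 libraries (adjusted p = 1.27e-14). ZNF254 had 1 count in MOLM13 and 11.3, 39.7 and 88.9 CPM elsewhere. Its ratio was 835-fold against HL60, with a counting interval of 160 to 35379. ZNF577, ZNF649 and ZNF567 completed these 6, with MOLM13 means of up to 0.571 ± 0.276 CPM. ZNF567 had 12.1 to 27.8 CPM in the other libraries and was 23.6-fold lower in MOLM13 than in OCIAML3.

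NHLRC3 and PROSER1 lie head to head on chromosome 13, and both were nearly silent in MOLM13. NHLRC3 had 0.101, 0.128, 0.0573 and 0.253 CPM in MOLM13 against 17.6, 25.2 and 44.2 CPM, 142-fold lower than in OCIAML3 (log2 difference -7.59, SE 0.23, adjusted p = 2.37e-16). PROSER1, a proline- and serine-rich protein, had 0, 0.320, 0.115 and 0.189 CPM against 8.20, 13.3 and 46.5 CPM, 65.7-fold lower than in Kasumi1 (adjusted p = 2.92e-12). Neither gene's groups overlapped. The remaining genes were AMOTL1, a scaffold protein of the angiomotin family (0.606 ± 0.108 CPM against 43.8 to 107 CPM), NRIP1, a corepressor of nuclear receptors (1.16 ± 0.634 against 46.4 to 158), SLC12A2, the sodium-potassium-chloride cotransporter (0.463 ± 0.264 against 11.9 to 46.8), and EGFL7, a secreted vascular factor (0.410 ± 0.340 against 3.19 to 238). They were 81.5-fold, 43.2-fold, 32.0-fold and 23.4-fold lower than in the nearest line, in that order.

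Promoters of 3 of these genes are shown because their transcripts were absent or nearly so in MOLM13 and abundant in all 5 other lines. They are the 250 bases before and 50 after the RefSeq start on GRCh38.p14, read 5′ to 3′ on the gene's strand, with CpG dinucleotides in capitals. The deposited files hold no sequence or methylation of these lines, so the letters are those of the reference genome.
ZNF724: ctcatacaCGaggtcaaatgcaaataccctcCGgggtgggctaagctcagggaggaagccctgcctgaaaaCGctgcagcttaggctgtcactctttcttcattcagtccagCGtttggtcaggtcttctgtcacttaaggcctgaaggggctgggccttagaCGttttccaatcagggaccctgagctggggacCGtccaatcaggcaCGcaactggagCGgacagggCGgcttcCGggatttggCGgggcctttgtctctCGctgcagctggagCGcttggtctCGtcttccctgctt
ZNF71: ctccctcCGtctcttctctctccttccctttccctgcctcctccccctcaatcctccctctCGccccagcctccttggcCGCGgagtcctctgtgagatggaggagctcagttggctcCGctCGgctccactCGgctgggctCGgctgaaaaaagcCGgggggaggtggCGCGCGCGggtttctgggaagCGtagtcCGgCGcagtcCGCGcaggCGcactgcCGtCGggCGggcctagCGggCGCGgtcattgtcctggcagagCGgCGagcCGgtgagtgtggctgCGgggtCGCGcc
NHLRC3: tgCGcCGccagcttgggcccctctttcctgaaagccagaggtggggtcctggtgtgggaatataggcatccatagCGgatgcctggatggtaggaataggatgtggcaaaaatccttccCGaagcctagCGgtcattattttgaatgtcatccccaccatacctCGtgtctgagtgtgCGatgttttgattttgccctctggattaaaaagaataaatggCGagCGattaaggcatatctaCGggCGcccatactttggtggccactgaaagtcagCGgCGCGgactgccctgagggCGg
The ZNF724 promoter (chr19:23250345-23250644, minus strand) holds 14 CpG, the ZNF71 promoter (chr19:56595052-56595351, plus strand) holds 31, and the NHLRC3 promoter (chr13:39038061-39038360, plus strand) holds 15. The NHLRC3 window shares 279 of its 300 bases with that of PROSER1 on the other strand. Over all tested protein-coding genes with a RefSeq promoter (10840 of 13926) the median was 26 CpG per window. It was 24 for genes higher than in each other line (377 of 628 matched), 27 for those lower than in each (633 of 745 matched) and 20 for the zinc finger genes described next (25 of 31 matched). Exact matches to CCAAT on either strand were present in 35.8% of the promoters of higher genes, 45% of those of lower genes and 36.1% of all, matches to TATAAA in 11.9%, 4.74% and 6.19%, and matches to GAGGAAG, a core recognised by the myeloid factor PU.1, in 12.7%, 13.6% and 14.5%. These matches describe letters in the window and not sites in use.

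Zinc finger genes of chromosome 19 were over-represented by count among the genes lower in MOLM13, although this set was chosen after its values were seen and carries no test. Of 240 tested ZNF and ZFP genes on chromosome 19, 31 (12.9%) were lower than in each other line, against 5.35% of all 13926 protein-coding genes, 5.41% of 259 such genes on other autosomes and 1.54% of the 842 other protein-coding genes of chromosome 19. Most of these genes encode KRAB zinc finger proteins, which silence transposable elements through TRIM28. Only 6 of the 240 were higher than in each line. The family as a whole did not shift, with a median log2 difference of -0.02 over the 240 genes and 0.06 over all genes. ZFP28, ZNF470, ZNF71 and SMIM17 were 4 neighbouring genes on chromosome 19 of GRCh38 (56538948 to 56655766), all with 0 or 1 count in MOLM13. ZFP28 was at least 10.1-fold lower than in OCIAML3, and ZNF470 was 53.7-fold lower than in MV411 with a counting interval of 9.30 to 2145. SMIM17 was near the floor everywhere, with line means of 0.0676 to 0.401 CPM in the others. Its bound was only 1.55-fold against OCIAML3. Near-identical paralogs in this family could split reads, so single levels carry that uncertainty.

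**Figure D2:**
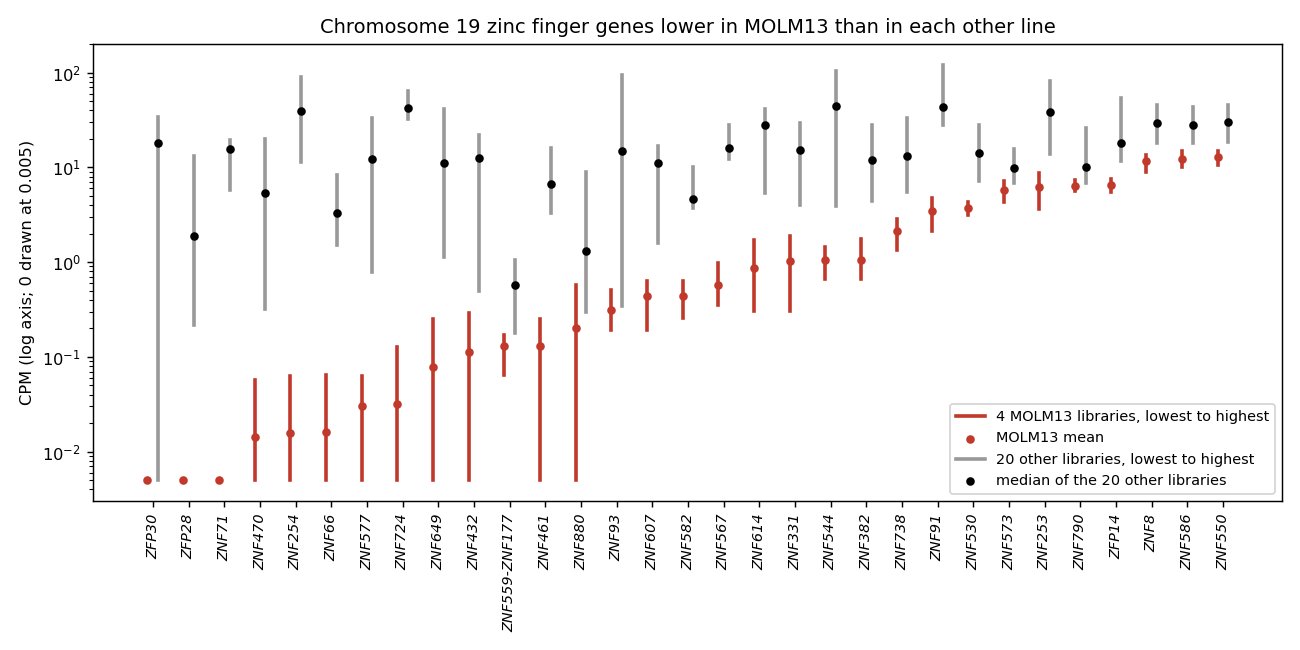
CPM on a log axis for the 31 chromosome 19 zinc finger genes that were lower in MOLM13 than in each other line. For each gene the left bar spans the 4 MOLM13 libraries with their mean, the right bar spans the 20 other libraries with their median, and 0 is drawn at 0.005. ZFP28, ZFP30 and ZNF71 have 0 counts in every MOLM13 library. ZFP30 was near the floor in MV411 as well, at a mean of 0.0545 CPM.

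HOX genes and their cofactors, the classical targets of KMT2A fusions, differed in MOLM13 by cluster. Of 22 tested, edgeR called 13 higher and 1 lower than the mean of the lines and limma 12 higher and 9 lower, and 14 of the 22 had a group at 0 counts. The list's median log2 difference was 1.02 by edgeR and 0.54 by limma, against 0.06 over all genes. HOXA9, which cooperates with MEIS1 in leukaemia, had 74.9, 80.4, 72.5 and 81.5 CPM in MOLM13 and 0, 49.6 and 93.1 CPM as lowest, median and highest of the others. It was 66.2 ± 18.1 CPM in MV411, 59.1 ± 11.8 in OCIAML3 and 53.7 ± 8.25 in THP1, ranges that overlapped MOLM13 or came near it, and 2.44 ± 0.677 and 0.0213 ± 0.0249 in Kasumi1 and HL60 (log2 difference from all lines 3.67, SE 0.14, adjusted p = 4.22e-14). MEIS1 had 124 ± 13.1 CPM in MOLM13, below MV411 (207 ± 31.3), above OCIAML3 (75.7 ± 6.71) and far above the other lines, where it averaged 0.115 to 3.07 CPM (log2 difference 4.34, SE 0.09, adjusted p = 4.9e-19). PBX3, their cofactor, had 138 ± 8.76 CPM in MOLM13, close to THP1 (154 ± 11.5) and MV411 (106 ± 16.5).

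Members of the 3′ and central HOXA cluster were higher in MOLM13 than in each line although their levels were low. HOXA3 had 2.28, 4.67, 6.19 and 5.18 CPM in MOLM13 against 0, 0.242 and 0.940 CPM, 6.13-fold above Kasumi1. HOXA6 (4.78 ± 2.15 CPM) and HOXA7 (1.96 ± 0.278) were 3.42-fold and 8.45-fold above the nearest line. HOXA4 (0.870 ± 0.446 CPM) passed the test as well, with overlapping libraries. HOXA13 had 10.6 ± 1.81 CPM in MOLM13 and 162 ± 22.7 in OCIAML3, and HOXA10 had 22.1 ± 5.46 against 36.4 to 85.1 CPM as means of Kasumi1, MV411, THP1 and OCIAML3. HOXA10 was nevertheless called higher than the mean of the lines (0.91, adjusted p = 1.17e-05) with HL60 at 0.0309 CPM, and without HL60 it was lower (-1.17, adjusted p = 2.72e-08). Genes of the HOXB cluster were low in MOLM13. HOXB3 and HOXB4 had 0 counts in all 4 MOLM13 libraries against 34.2 ± 5.76 and 17.3 ± 2.16 CPM in OCIAML3, and were called lower by limma (adjusted p = 3.54e-13 and 5.13e-11) but not by edgeR (adjusted p = 1), where Kasumi1 was at 0 as well.

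KMT2A itself did not pass the test against the mean of the lines (-0.19, adjusted p = 0.15). Its MOLM13 libraries had 68.7, 117, 115 and 118 CPM against 70.7, 133 and 189 CPM, and it was called lower after a correction for GC content and length (-0.45, adjusted p = 1.27e-05) and without MOLM13 day 2 replicate 2 (-0.43, adjusted p = 0.00278), HL60 (-0.32, adjusted p = 0.0197) or THP1 (-0.38, adjusted p = 0.0142). Counts per gene do not separate fusion transcripts from the normal alleles. MLLT3, the fusion partner, had 13.4 ± 1.44 CPM in MOLM13, between MV411 at 4.01 ± 0.946 and Kasumi1 at 22.5 ± 2.56. WDR5, a subunit of the KMT2A complex, was lower in MOLM13 than in each line, with 76.3 ± 23.1 CPM against line means of 92.8 to 169 (-0.64, SE 0.09, adjusted p = 3.83e-06). Of 14 genes listed as targets of KMT2A fusions, edgeR called 9 higher and 0 lower than the mean of the lines (median 0.59), and limma 9 and 1. SOCS2 and JMJD1C were higher than in each. Against MV411 alone, where 44.6% of all genes were called, 3 of the 14 were higher and 4 lower. Against THP1 alone, where 61.7% were called, 6 were higher and 3 lower.

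**Figure D3:**
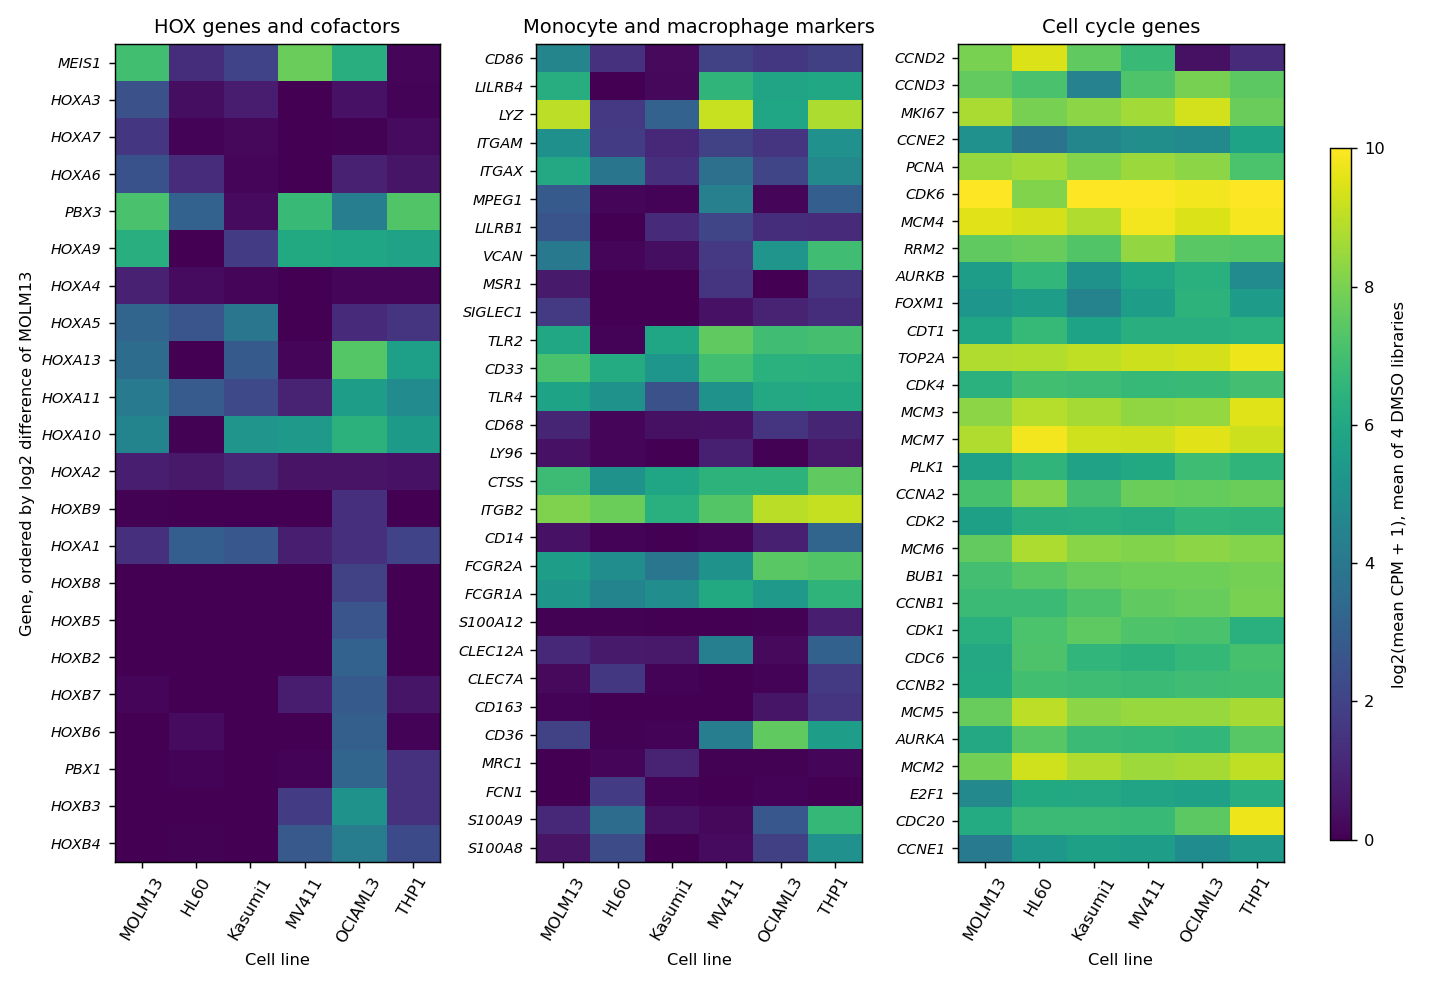
Mean level of each gene as log2(CPM + 1) over the 4 DMSO libraries of a line, for HOX genes and cofactors, monocyte and macrophage markers and cell cycle genes, with MOLM13 as the left column. Rows are ordered by the log2 difference between MOLM13 and the mean of the other lines from limma. MEIS1, PBX3 and HOXA9 share high levels with some of MV411, OCIAML3 and THP1, the HOXB rows are dark in MOLM13 and bright in OCIAML3, and LYZ is bright in MOLM13, MV411 and THP1.

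FLT3, the receptor duplicated in MOLM13 and MV411, had 569, 440, 367 and 354 CPM in MOLM13 and 14.4, 110 and 1156 CPM as lowest, median and highest of the others. MV411 was above MOLM13 (909 ± 208 CPM), and the other 4 lines averaged 15.9 to 194 CPM (log2 difference from all lines 1.83, SE 0.07, adjusted p = 8.17e-15). KIT, the stem cell factor receptor, had 0.404 ± 0.127 CPM in MOLM13 and 1885 ± 84.3 in Kasumi1. The other lines averaged 0.0351 to 24 CPM. Limma called KIT lower (-3.78, adjusted p = 1e-10), while edgeR gave an adjusted p of 1 with an OCIAML3 group at 0 counts. AXL, a receptor kinase for GAS6, had 18.4, 28.7, 44.0 and 86.1 CPM in MOLM13 against 0.129, 2.92 and 18.1 CPM and was 2.97-fold above THP1 (adjusted p = 5.47e-16). AXL was also higher at day 4 than at day 2 within MOLM13 (1.47, adjusted p = 0.0016). Of 25 receptor kinases and cytokine receptors tested, 16 were higher and 5 lower than the mean of the lines by edgeR, and 15 and 6 by limma, with a median of 0.68. IFNAR1 and TNFRSF1B were also higher than in each line, and CSF2RB, the common beta chain of the GM-CSF and IL-3 receptors, was lower than in each (20.8 ± 3.42 CPM against 27.8 to 41.4).

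Feedback genes of STAT5 signalling were high in MOLM13. SOCS2, a cytokine-induced inhibitor of signalling, had 210, 170, 185 and 167 CPM in MOLM13 against 1.33, 25.8 and 67.4 CPM. No library overlapped, and MOLM13 stood 3.04-fold above MV411 (log2 difference from all lines 3.59, SE 0.07, adjusted p = 4.42e-19). SOCS1 had 3.72 ± 1.35 CPM in MOLM13 and was 2.22-fold above MV411. PIM1, a STAT5-induced kinase, had 144 ± 47.8 CPM in MOLM13 and 140 ± 10.9 in MV411, with 6.92 to 23.4 CPM in the other lines. CISH had 61.9 ± 12.1 CPM in MOLM13, 55.5 ± 16.4 in MV411 and 11.4 to 35.9 in the other lines. Of the 11 listed genes 9 were higher and 1 lower than the mean of the lines by both edgeR and limma, with a median of 1.34. The lower gene was BCL2L1, the anti-apoptotic BCL-XL, with 6.93 ± 0.884 CPM against line means of 9.93 to 19.6. Set against MV411 alone, 5 of the 11 were higher and 4 lower, and set against THP1 8 were higher and 2 lower.

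CDKN1A, the p21 inhibitor of cyclin-dependent kinases, had 93, 88.8, 171 and 189 CPM in MOLM13 against 0.438, 20.4 and 70.5 CPM. MOLM13 was 2.10-fold above MV411 without overlap (log2 difference from all lines 3.12, SE 0.09, adjusted p = 1.83e-16). RRM2B, a ribonucleotide reductase subunit used in DNA repair (209 ± 32.2 CPM), TNFRSF10B, the TRAIL receptor DR5 (220 ± 71.3), and ZMAT3, an RNA-binding protein (56.5 ± 23.3), were 1.34-fold to 1.78-fold above the nearest line, with overlapping libraries. MDM2, a ubiquitin ligase, had 319 ± 101 CPM in MOLM13 and 323 ± 3.79 in OCIAML3. RRM2B and TNFRSF10B lie on chromosome 8, which is described below.

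Of 30 cell cycle genes tested, 3 were higher and 20 lower than the mean of the lines by edgeR (2 and 20 by limma), with a median of -0.73, and 12 were lower than in each line. These 12 were MCM2, MCM5, MCM6, MCM7, AURKA, CDC6, E2F1, CCNE1, CDC20, CDK2, CCNB2 and BUB1. CCNE1, cyclin E1, had 28.7, 18.2, 8.03 and 8.97 CPM in MOLM13 against 21.9, 40.1 and 61.0 CPM (-1.49, SE 0.12, adjusted p = 1.11e-09). E2F1, the transcription factor of S phase entry, had 40.5, 24.4, 19.9 and 16.9 CPM against 22.6, 64.9 and 82.6 CPM (-1.31, SE 0.15, adjusted p = 4.11e-07). Day 2 replicate 1 of CCNE1 and both day 2 libraries of E2F1 lay within the range of the other lines, and the day 4 libraries of both genes lay below it. With the day 2 libraries alone 6 of the 30 were higher and 10 lower (median -0.21), and only E2F1 was lower than in each line. With the day 4 libraries alone 2 were higher, 23 lower (median -1.19) and 12 lower than in each. Over all genes the day 2 fit called 4550 of 19427 higher, 2568 lower and 284 lower than in each line. The day 4 fit called 5991 of 20157 higher, 3778 lower and 709 lower than in each.

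Within MOLM13, 1882 genes (9.08%) differed between day 4 and day 2, 476 higher and 1406 lower at day 4. Of the 30 cell cycle genes 22 were lower at day 4 and 0 higher, with a median log2 difference of -1.16. MCM2, a subunit of the replicative helicase, had 113 and 115 CPM at day 4 and 452 and 254 CPM at day 2 (-1.63, SE 0.28, adjusted p = 0.00109). RRM1, the large ribonucleotide reductase subunit, had 81.6 and 87.4 CPM at day 4 and 264 and 199 CPM at day 2 (-1.45, SE 0.16, adjusted p = 2.69e-05). TFRC, the transferrin receptor, had 212 and 230 CPM at day 4 and 841 and 527 CPM at day 2 (-1.63, SE 0.21, adjusted p = 0.000103). CDKN1A was higher at day 4 (0.99, adjusted p = 0.00258). These day values rest partly on day 2 replicate 1, the library apart in histone genes. Without it the median over the 30 cell cycle genes was -1.01.

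The change by day in MOLM13 differed from the mean change of the 5 other lines in 599 genes (2.89%), 86 more positive and 513 more negative in MOLM13, and in 20 of the 30 cell cycle genes, all more negative. The differences were -1.17 for CCNE1 (adjusted p = 0.00626), -1.13 for AURKA, the mitotic kinase (adjusted p = 0.0017), -1.26 for RRM1 (adjusted p = 0.000838) and -1.57 for TFRC (adjusted p = 0.0013). Without day 2 replicate 1 the count was 50 genes in all and 6 of the 30 cell cycle genes, with a median over the list of -0.79 in place of -0.92. Culture density and other conditions of these days were not in the sources used here. Among the remaining day genes, OAS3, an interferon-induced antiviral enzyme, had 2.35 and 12.3 CPM at day 4 and 0.405 and 0.448 CPM at day 2 (4.08, adjusted p = 0.000889), and IGLL1, a surrogate light chain of pre-B cells, had 1.83 and 1.20 CPM against 11 and 4.80 CPM (-2.38, adjusted p = 0.00142).

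The p16 and p15 genes had no counts in MOLM13. CDKN2A and CDKN2B, which encode inhibitors of CDK4 and CDK6, had 0 counts in all 4 MOLM13 libraries and in all 4 THP1 libraries, while CDKN2A averaged 4.11 to 35.6 CPM in the other 4 lines and CDKN2B 0.556 to 10.7 CPM. Limma called both lower than the mean of the lines (-5.53 and -4.21, adjusted p = 1.74e-16 and 5.67e-13), and edgeR gave an adjusted p of 1 for both, with the THP1 groups at 0. MTAP, their neighbour, which salvages methionine, had 55.8 ± 5.96 CPM in MOLM13 and 0.0152 ± 0.0303 in THP1. The other lines averaged 48.1 to 128 CPM. MYC had 759 ± 98.2 CPM in MOLM13, below HL60 (1649 ± 281) and above the other 4 lines (281 to 543), with a log2 difference from all lines of 0.55 (adjusted p = 0.000142).

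Monocytic genes placed MOLM13 between the lines and not at an extreme. Of 29 monocyte and macrophage markers tested, 16 were higher and 1 lower than the mean of the lines by edgeR, and 16 and 7 by limma, with a median of 0.91. Line by line, 24 were higher and 1 lower than in Kasumi1 (60.3% of all genes called), 20 and 4 than in HL60 (62.8%), 12 and 6 than in MV411, 11 and 10 than in OCIAML3 (54.5%), and 4 and 15 than in THP1. LYZ, lysozyme, had 509 ± 122 CPM in MOLM13, 570 ± 341 in MV411 and 434 ± 102 in THP1, with 2.17 to 60.2 CPM in the other lines. ITGAX, the integrin CD11c, had 24.8, 56.1, 66.1 and 110 CPM in MOLM13 against 1.35, 6.52 and 27.8 CPM and was 2.54-fold above THP1 (adjusted p = 2.9e-11). CD14, the coreceptor for bacterial endotoxin, was low in MOLM13 (0.420 ± 0.232 CPM) and had 8.58 ± 0.821 CPM in THP1, and it did not pass the test against the mean (adjusted p = 0.125). It was called higher without HL60 day 4 replicate 2 (1.06, adjusted p = 0.0323), without OCIAML3 (1.09, adjusted p = 0.0481) and without THP1 (1.99, adjusted p = 0.00355), and was -0.24 without Kasumi1. FCER1G, the common Fc receptor gamma chain, had 2.34 ± 1.16 CPM in MOLM13 against 37.0 to 105 CPM as means of MV411, OCIAML3 and THP1 and was lower than the mean of the lines (-2.80, adjusted p = 1.09e-07).

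Of 11 azurophil granule genes 10 were higher and 1 lower than the mean of the lines by both tools, with a median of 1.91. SRGN, the granule proteoglycan serglycin, had 2637 ± 463 CPM in MOLM13 and was above all 20 other libraries (48.2 to 1868 CPM). MPO, myeloperoxidase, had 347, 222, 109 and 111 CPM in MOLM13, against 11622 ± 829 in Kasumi1, 2588 ± 811 in HL60 and 1.59 to 16.6 in the other 3 lines, and was called higher than the mean (0.99, adjusted p = 1.42e-06). Without OCIAML3 it was lower (-0.50, adjusted p = 0.004). IRF8, a transcription factor of monocytes and dendritic cells, was called higher (2.28, adjusted p = 7.64e-15), with 279 ± 116 CPM in MOLM13, 566 to 1114 CPM in MV411, THP1 and OCIAML3 and 0.101 to 10.0 in HL60 and Kasumi1, and without HL60 it did not pass (-0.01, adjusted p = 0.988).

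Progenitor and other lineage genes differed in both directions. CD34 had 1 count in the MOLM13 libraries and 76.6 ± 3.94 CPM in Kasumi1, and the other 4 lines averaged at most 0.0895 CPM. ERG, a stem cell transcription factor, had 0.0158 ± 0.0316 CPM in MOLM13 from 1 count and was lower than in each line (line means 0.106 to 79.3 CPM). Its call against the mean of the lines was lost without HL60 day 4 replicate 1 (log2 difference -6.30). Of 14 stem and progenitor genes 4 were higher and 4 lower by edgeR, and 4 and 8 by limma. EPX, the eosinophil peroxidase, had 8.61, 4.93, 5.96 and 4.04 CPM in MOLM13 against 0, 0.176 and 1.12 CPM, 8.26-fold above Kasumi1. The 13 mast cell, basophil and eosinophil markers summed to 41.0 to 136 CPM in MOLM13 and to 2.13 to 370 CPM in the others, and whether other cells added to EPX was not tested. PAX5, the B cell transcription factor, had 0.115 CPM in day 4 replicate 1 of MOLM13 and 0 in its other libraries. It was lower than in each line (line means 0.252 to 7.81 CPM). HLA-B, a class I antigen-presenting molecule, had 164 ± 35.7 CPM in MOLM13 against line means of 36.5 to 137 (1.06, adjusted p = 1.12e-05), and 10 of 14 class I and peptide-loading genes were higher and 0 lower by edgeR, with close paralogs among them. XAF1, an interferon-induced pro-apoptotic gene, had 50.4 ± 18.7 CPM in MOLM13 and was 1.67-fold above MV411. Of 28 interferon-stimulated genes 15 were higher and 2 lower by edgeR and 12 and 3 by limma. With the day 2 libraries alone 5 were higher and 4 lower, where 4550 of all 19427 genes were higher and 2568 lower. With the day 4 libraries alone 17 of 29 tested were higher and 1 lower, where 5991 of all 20157 genes were higher and 3778 lower. Within MOLM13, 11 of the 28 were higher at day 4 than at day 2 and 0 were lower (median 1.29). The change by day differed from the mean change of the other lines in 0 of the 28 (median difference 0.91).

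KDM1A, the target of GSK2879552, had 219, 187, 139 and 137 CPM in MOLM13 and 147, 217 and 373 CPM as lowest, median and highest of the others. It was slightly lower than the mean of the lines (-0.44, SE 0.08, adjusted p = 0.000124) and lay beside OCIAML3 (158 ± 9.08) and MV411 (177 ± 19.2). With the day 2 libraries alone it did not pass (-0.20, adjusted p = 0.217). Of 13 genes of LSD1 complexes 4 (30.8%) were higher and 5 (38.5%) lower than the mean by both tools (median -0.12). Over all genes edgeR called 32.8% higher and 21.9% lower. GSE1 (107 ± 25.9 CPM) and ZMYM2 (283 ± 65.0) were higher than in each line. HDAC1, the deacetylase of the complex, was lower than in each (158 ± 39.0 CPM against 190 to 323). HDAC1 was also lower at day 4 than at day 2 within MOLM13 (-0.59, adjusted p = 0.00921). GSE1 and ZMYM2 did not pass that test by day (adjusted p = 0.334 and 0.0819). RARA, the receptor of ATRA, did not pass the test (-0.39, adjusted p = 0.101), with 23.1 ± 5.03 CPM in MOLM13 and line means of 7.76 to 74.2. It was called lower without a filter on low counts (-0.42, adjusted p = 0.00211), with the day 2 libraries alone (-0.59, adjusted p = 0.00853) and without Kasumi1 (-0.88, adjusted p = 0.00157). It was also called lower without MV411 day 4 replicate 1 (-0.28, adjusted p = 0.0434) or replicate 2 (-0.47, adjusted p = 0.00126). RDH10, which makes retinal from retinol and lies on chromosome 8, was higher than in each line, with 80.9, 60.2, 53.7 and 53 CPM against 7.39, 19 and 34.8 CPM (1.88, SE 0.09, adjusted p = 2.66e-13). BCL2, the target of venetoclax, had 566 ± 80.3 CPM in MOLM13 and was higher than the mean of the lines (0.68, adjusted p = 7.5e-07), though close to HL60 (517 ± 78.5). BCL2L1 and BCL2L2 were lower than in each line.

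**Figure D4:**
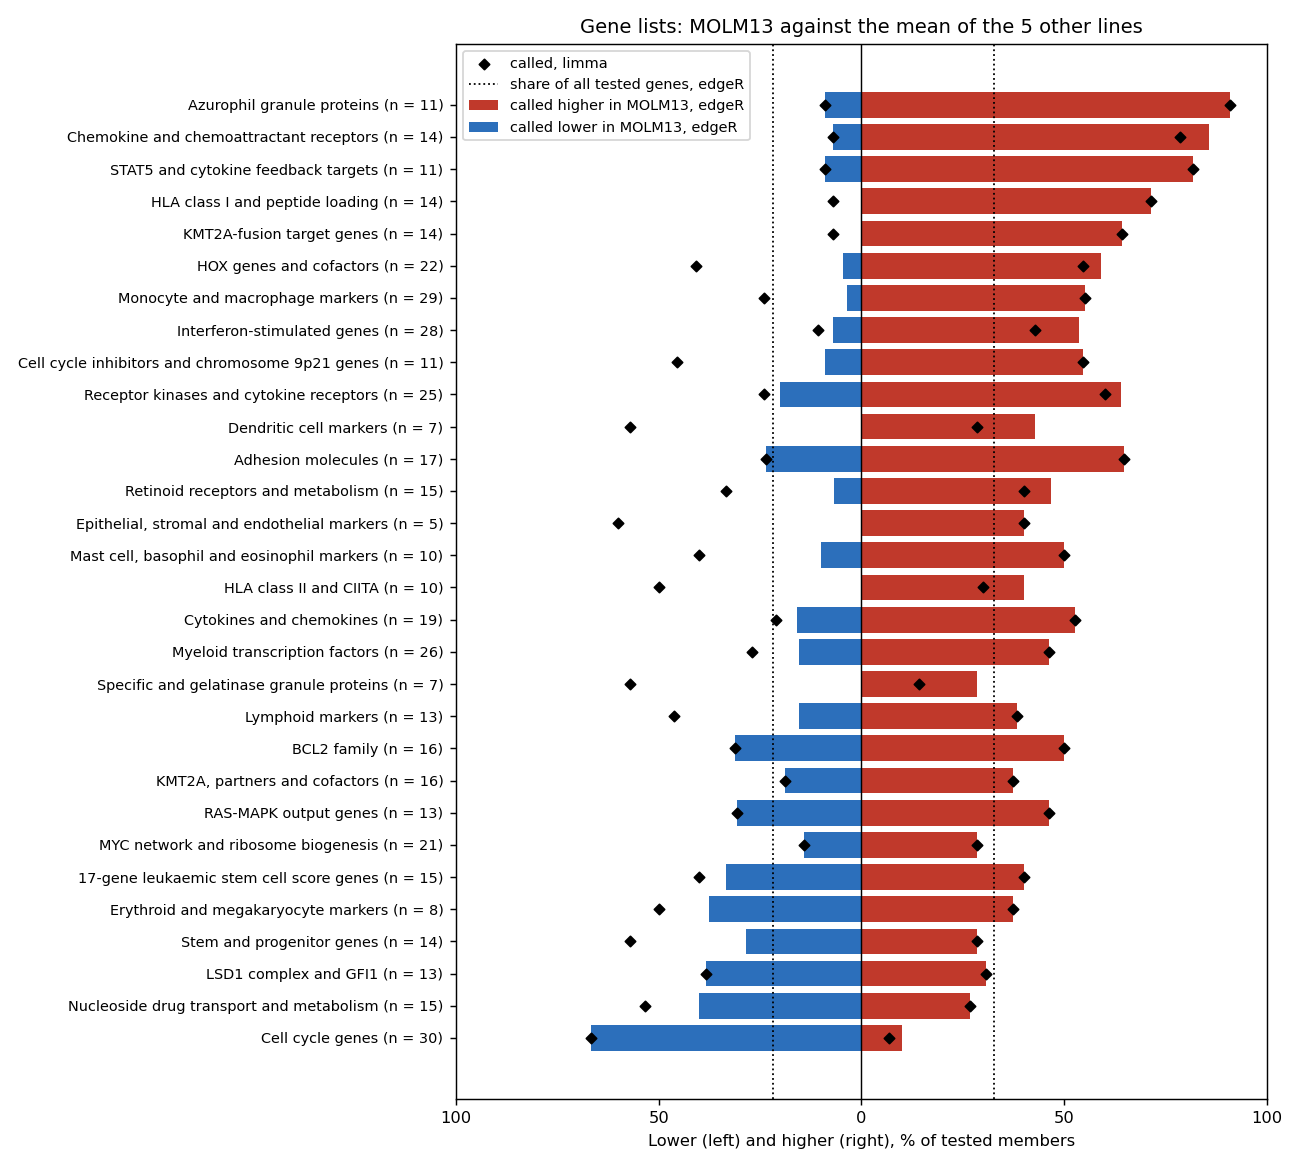
Share of the tested members of each of 30 gene lists called higher (right) or lower (left) in MOLM13 than the mean of the 5 other lines. Bars show edgeR, diamonds show limma and dotted lines show the edgeR share of all tested genes, 32.8% higher and 21.9% lower. Diamonds reach further left than the bars in lists with groups at 0 counts, such as the HOX list (9 lower by limma and 1 by edgeR).

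Genes higher in MOLM13 were unevenly spread over the chromosomes. On chromosome 8, 241 of 844 tested genes (28.6%) were higher than in each other line and 1 was lower, and the median log2 difference was 0.82, against 0.06 over all autosomes. The median was positive against each line, at 1.30 for HL60, 0.96 for Kasumi1, 0.67 for OCIAML3, 0.59 for THP1 and 0.55 for MV411. All 15 windows of 10 Mb along the chromosome had positive medians, between 0.43 and 1.31. RPL7, a ribosomal protein gene of chromosome 8, had 4701 ± 465 CPM in MOLM13 against 1282 to 2974 CPM in the others, and LYN, a SRC-family kinase also on chromosome 8, had 297 ± 19 CPM against 57.4 to 197 CPM. Neither gene's libraries overlapped. Chromosome 13 had 63 of 428 genes (14.7%) higher than in each line and a median of 0.64, with 0.12 against HL60 and 0.52 to 0.85 against the others. Chromosome 6 had 140 of 1082 (12.9%) and a median of 0.46, with 0.13 against THP1 and 0.45 to 0.53 against the others. The medians of these 3 chromosomes stayed within 0.72 to 0.85, 0.58 to 0.69 and 0.38 to 0.51 under 8 other settings. DNA copy number was not measured in these files, so its part was not tested. Of the genes named above, ENPP2, RRM2B, TNFRSF10B, MYC and RDH10 lie on chromosome 8, FLT3, SHISA2 and ZMYM2 on chromosome 13 together with NHLRC3 and PROSER1, which were lower than in each line, and CDKN1A, PIM1 and HLA-B on chromosome 6.

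**Figure D5:**
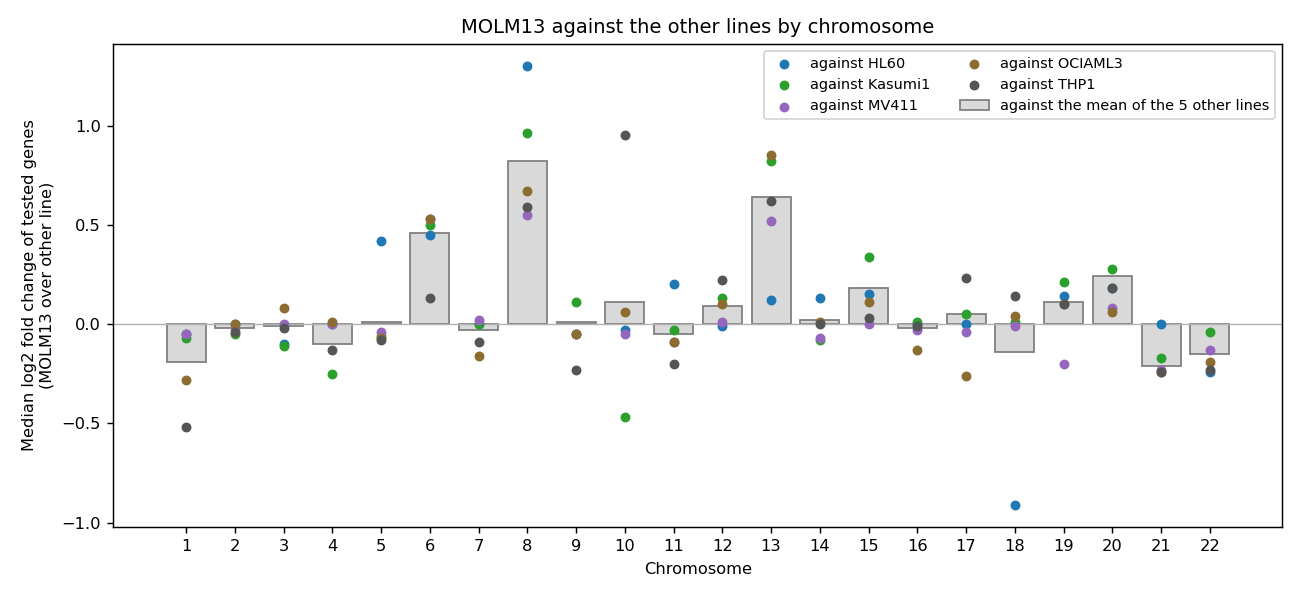
Median log2 fold change of the tested genes of each autosome, MOLM13 over the mean of the 5 other lines (bars) and over each line singly (points). Chromosomes 8, 13 and 6 stand highest, at 0.82, 0.64 and 0.46, and the points of chromosome 8 lie between 0.55 and 1.30.

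Neighbouring genes also differed together, on chromosome 8 and elsewhere. Over all autosomes, chromosome 8 included, of the 628 protein-coding genes higher than in each line (4.51%), 34.6% had an adjacent tested gene that was higher too, against 8.31% of all tested protein-coding genes, and for the 745 lower genes (5.35%) the shares were 21.3% and 10.3%. There were 10 runs of at least 4 such neighbours, of which 7 lay on chromosome 8. On chromosome 11 of GRCh38, 8 neighbours from 6765626 to 7020368 were higher, namely 6 olfactory receptor genes with means of 0.612 to 1.21 CPM and the zinc finger genes ZNF214 and ZNF215. ZNF215 had 18.8 ± 1.45 CPM in MOLM13, 9.71 in HL60, 1.59 in THP1 and 0 in the other 3 lines. Further along chromosome 11 (61768501 to 61829318), TMEM258, FEN1, FADS2 and FADS1 were each lower than in every other line. Libraries overlapped for TMEM258 (37.1 to 78.4 CPM in MOLM13 against 57.4 to 137) and FEN1 (35.4 to 168 against 87.1 to 240). Those of FADS2 and FADS1 did not. FADS2, a fatty acid desaturase, had 60.9 ± 26.3 CPM in MOLM13 against 183 to 515 CPM in the others and was 4.44-fold lower than in OCIAML3. FEN1, a replication nuclease, overlaps FADS2 on the same strand, so their reads cannot be fully told apart. FADS1 lies inside the span of FADS2 on the other strand. Whether reads of FADS1 and FADS2 were separated is uncertain, because the strand setting of the counting is not given in the sources used here.

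The same contrast was then fitted in the treated libraries, which share no library with the DMSO comparison. The share of genes called against the mean of the lines was 41.6% with 552A, which is read here as GSK2879552, 45.8% with ATRA and 39.9% with both. Among the 552A libraries 620 genes (2.92%) were higher than in each other line and 411 (1.94%) lower, and 490 of the 620 and 322 of the 411 were in the DMSO lists. These are 44.2% of the 1108 DMSO genes and 79.0% of the 620 in the higher direction, and 39.3% and 78.3% in the lower. With ATRA 435 of 689 higher genes (3.24% of those tested) and 282 of 447 lower genes (2.10%) were shared, and with both drugs 346 of 609 (2.79%) and 226 of 404 (1.85%). In all 3 treated sets 208 higher and 148 lower genes of the DMSO lists were called. ERBB4 was higher than in each line in all 3 sets, with log2 differences from the mean of 10.48 with 552A, 7.32 with ATRA and 6.05 with both, against 10.74 in DMSO. CD3D stayed between 9.03 and 9.70, and SOCS2 between 4.26 and 4.94. ZNF71, NHLRC3 and NRIP1 were lower than in each line in all 3 sets, with log2 differences for NHLRC3 of -7.75 with 552A, -7.74 with ATRA and -8.29 with both, and for NRIP1 of -6.88, -4.30 and -3.30 in the same order. CDKN1A was higher than the mean of the lines in each set (1.94 to 2.41) but no longer higher than in each. CCNE1 and E2F1 were lower than in each line with 552A only, and whether the treated and untreated differences differ was not tested. Chromosome 8 had medians of 0.78, 0.83 and 0.75 with 552A, ATRA and both, chromosome 13 had 0.61, 0.62 and 0.54, and chromosome 6 had 0.38, 0.41 and 0.40.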

How the data were processed

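The authors deposited 1 table of raw counts per gene, in whole numbers, for 96 libraries. Per the labels' protocols, these were made from total RNA with Illumina's TruSeq Stranded Total RNA chemistry. The submitters' processing notes name Trimmomatic 0.36, STAR 2.4.2a, HTSeq 0.6.0 and GRCh38. Neither the gene annotation nor whether HTSeq counted by strand is given in the sources used here. Antisense and overlapping genes are uncertain for that reason. Of 60552 gene rows, 56994 matched GENCODE 29 by identifier and 54123 of these are autosomal. The 3508 unmatched rows held 0.0417% of the counts and were left out.

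Counts were analysed with edgeR 4.0.16 in R 4.3.3 using quasi-likelihood tests, with TMM factors and filterByExpr, over 24 DMSO libraries in 12 groups of line and day (12 residual degrees of freedom). The contrast was MOLM13 minus the mean of the 5 other lines on the log2 scale. MOLM13 was also set against each line, day 4 against day 2 within MOLM13, and that change against the mean change of the other lines. P-values were adjusted by the Benjamini-Hochberg method over all genes tested, with a threshold of 0.05. An SE is the absolute log2 difference divided by the square root of the F statistic. Limma 3.58.1 on log2 CPM with a prior count of 2 was added after the data were seen, for groups at 0 counts, and DESeq2 1.42.0 was an alternative. Both tools' adjusted p-values come from fits across all genes. Ratios to a group at 0 used a floor of 3 counts over its 4 libraries, and counting intervals (exact, 95%) and floors cover counting error only.

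Members and gene lists were chosen with earlier results of these data known. Genes were named by a rule: the 12 protein-coding genes furthest above and the 12 furthest below every line with at least 10 CPM in the higher group, up to 4 called members per list, 16 genes of interest, and 3 genes in each direction by day. Other list members, the zinc finger genes and genes in neighbour runs were named after their values were seen, and some listed genes are not reported here. The labels do not say that replicates were separate cultures, so the spread behind the p-values is that of these libraries alone and could be technical. No replicate pair agreed within sampling noise: over the 12 pairs, chi-square divided by its degrees of freedom was at least 9.902.

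On simulated counts with 200 changed genes among 19110, edgeR recovered 194 with 10 false calls in the comparison with the mean of the lines. Against each line it recovered 175 with 0 false calls, and limma recovered 196 with 14 false calls against the mean. All lines were simulated from a common profile, and the changed genes had an average log2 CPM of at least 1. The simulation therefore cannot show how the tests behave where the other lines differ among themselves or a line is silent. Alternatives changed the normalization, the filter on low counts, GC content and length, the replicate block, the days, the test, the minimum fold, and each library and line left out in turn. Promoters are from RefSeq on GRCh38.p14 and were counted with Python 3.11.15.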

Additional observations from a re-analysis of the deposited data

Results flagged for a closer look

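For 12 values 1 MOLM13 library lay far from the other 3, by a gap to the nearest that passed Dixon's critical value (chance passes it in about 1 of 20 groups, and 103 groups were examined). In 4 genes and 1 library measure the distant library was replicate 1 of day 2. It had 29.4 CPM of AKR7A3 against 16.5 to 18.2 in the other 3, and 68.7 CPM of KMT2A against 115 to 118. JMJD1C had 394 CPM there against 565 to 585, and GSE1 had 68.2 CPM against 115 to 123. Histone genes took 2.078% of the counts of that library against 1.155 to 1.282%. OAS3 was apart in day 4 replicate 2, with 12.3 CPM against 0.405 to 2.35. In 6 genes the distant library was the one that held the 1 or 2 counts found in MOLM13: ZNF724 (0.128 CPM), ZNF254 and ERG (0.0631 CPM each), CD34 (0.0506 CPM), PAX5 (0.115 CPM) and ZNF470 (0.0573 CPM), each against 0 in the other 3.

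The 10 genes given here are among the 599 in which the day difference of MOLM13 differed from the mean day difference of the 5 other lines by edgeR's interaction test. The differences in log2 change, day 4 over day 2, were negative for TFRC (-1.57, adjusted p = 0.0013), FEN1 (-1.50), MCM2 (-1.27, adjusted p = 0.0286), RRM1 (-1.26, adjusted p = 0.000838), CCNE1 (-1.17, adjusted p = 0.00626), AURKA (-1.13, adjusted p = 0.0017) and FLT3 (-0.71, adjusted p = 0.0179). They were positive for NRIP1 (1.23, adjusted p = 0.0338), ZMAT3 (0.89, adjusted p = 0.0309) and MDM2 (0.85, adjusted p = 0.0186). Day 2 replicate 1 is one of the 2 MOLM13 libraries behind each of these day 2 values, and without it 50 genes in all passed this test.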

How the results depend on the processing

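Single genes were followed against the mean of the lines in all of the 41 settings except the minimum of 2-fold. Of 3954 values of 99 genes, 3899 kept their direction and their side of the threshold. Of the rest, 28 newly passed it, 16 no longer passed and 11 changed direction. OAS3 changed sign with the day 2 libraries alone (-1.05), with limma (-0.33) and without MOLM13 day 4 replicate 2 (-0.43), and with 1 line left out it ran from -1.33 (without HL60) to 1.20. TFRC was at 0.17 with day 2 alone and KMT2A at 0.03 with day 4 alone. With 1 line left out, HOXA10 ran from -1.17 (without HL60) to 1.60, MTAP from -0.71 (without THP1) to 2.56, MPO from -0.50 (without OCIAML3) to 2.74, CD14 from -0.24 (without Kasumi1) to 1.99, and IRF8 from -0.01 (without HL60) to 3.34. Averages over 5 lines therefore depended on single lines in these genes. KDM1A, RRM1, MLLT3 and CD34 did not pass with the day 2 libraries alone, and ERG and CD34 lost their call in fits where leaving out a library put an HL60 or THP1 group at 0 counts.

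With day 2 alone 7118 genes were called against the mean of the lines, 5762 against MV411, 531 higher than each line and 284 lower than each. With a minimum of 2-fold the counts were 3064 against the mean, 5375 for HL60, 5449 for Kasumi1, 2557 for MV411, 4304 for OCIAML3, 5169 for THP1, 200 higher than each and 127 lower than each. DESeq2 called 186 genes with lines as replicates and 1290 for the difference in day change. The GC and length correction gave 3462 genes by day and 1328 for the difference in day change. Leaving out the 3 libraries with over 2.5% mitochondrial counts, chosen after seeing the data, gave 1244 and 296. The cause of these shifts was not tested.

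Leaving out 1 library gave 390 (without MOLM13 day 2 replicate 1) to 3165 genes by day and 50 (the same library) to 1561 (without MOLM13 day 2 replicate 2) for the difference in day change. It gave 786 to 1343 genes higher than each line and 642 to 1034 lower than each, where both lowest counts were without MOLM13 day 2 replicate 2 and 755 and 610 of those genes were also called with all libraries. Without MV411 1766 genes were higher and 1506 lower than each remaining line.

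With the replicate number as a block (replicate block) 2837 genes were called by day and 1160 for the difference in day change, or 4503 and 2130 together with the GC and length correction. The other counts stayed within 1.5 times, at 11959 against the mean, 1226 higher than each and 940 lower than each. Same-numbered libraries correlated at -0.02 to 0.57 (median 0.24, 66 pairs of groups, 60 over 0.1). Not every pair passed 0.1 and the labels name no shared batch, so the fit without the block is the one reported, and the correlation remains a hint from the data that numbers share conditions. Depth limited the genes with 0 to 3 counts in a line, whose ratios are bounds or wide intervals.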

Other observations

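Receptors for chemokines and chemoattractants were mostly higher in MOLM13 than the mean of the lines, without setting it apart from each line. Of 14 tested, 12 were higher and 1 lower by edgeR (11 and 1 by limma), with a median log2 difference of 1.18, and 0 were higher than in each line. CCR2, the receptor that draws monocytes to CCL2, had 112 ± 19.3 CPM in MOLM13, below THP1 (436 CPM) and MV411 (156 CPM), while HL60 and Kasumi1 had 0.0984 and 0.110 CPM. S1PR4, a sphingosine phosphate receptor of blood cells, had 87.4, 21.8, 36.9 and 38.9 CPM in MOLM13, near HL60 (47.4 CPM) and Kasumi1 (40.5 CPM), and at most 0.0859 CPM in the other 3 lines. Among 17 adhesion molecules tested, 11 were higher and 4 lower by both tools. SELPLG, the selectin ligand PSGL-1, was the one higher than in each line, with 152, 132, 125 and 125 CPM in MOLM13 against 1.04 to 76.8 CPM and no overlap (log2 difference 2.22, SE 0.11, adjusted p = 1.13e-12). ITGAL, the alpha chain of LFA-1, had 625 ± 76.2 CPM in MOLM13 and 850 CPM in MV411, with 2.68 to 197 CPM in the other lines. ITGA6, a laminin receptor subunit, was lower than the mean of the lines (3.86 ± 1.00 CPM against 5.26 to 121 CPM, log2 difference -2.65, SE 0.20, adjusted p = 4.61e-10).

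Genes that transport and activate nucleoside drugs differed one by one. Of 15 tested, 4 were higher and 6 lower than the mean of the lines by edgeR (4 and 8 by limma). With the day 2 libraries alone 4 were higher and 2 lower, where 4550 of all 19427 genes were higher and 2568 lower. DCK, the kinase that activates cytarabine, had 69.0, 50.5, 35.9 and 37.4 CPM in MOLM13 against 50.9 to 108 CPM in the others (log2 difference -0.66, SE 0.10, adjusted p = 1.15e-05). SAMHD1, which hydrolyses the active triphosphate of cytarabine, had 78.0 ± 9.05 CPM in MOLM13, below MV411, OCIAML3 and THP1 (238 to 588 CPM) and above HL60 and Kasumi1 (15.7 and 25 CPM). SLC29A2, an equilibrative nucleoside transporter, had 27.5 ± 4.43 CPM in MOLM13, close to HL60 (26.6 CPM), and 0.315 to 2.73 CPM in MV411, OCIAML3 and THP1. SLC28A3, a concentrative transporter, had 0.0506 to 0.189 CPM in MOLM13, against 39.7 CPM in MV411, 14.6 CPM in HL60 and 13.5 CPM in Kasumi1. Limma called it lower (adjusted p = 9.55e-12) and edgeR did not (adjusted p = 1), with OCIAML3 at 0 counts.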
